A study of Bos taurus with 6 samples.

Results

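The PPAR, LXR and RXR nuclear receptors, together with HNF4A and the PGC-1 coactivators, were examined in bovine blood at every array probe named for 1 of 10 genes, PPARA, PPARD, PPARG, RXRA, RXRB, NR1H2, NR1H3, HNF4A, PPARGC1A and PPARGC1B. A probe was taken when its gene name, or the symbol in brackets in its description, was 1 of these 10. This gave 23 of the 43653 probes besides controls, for 9 of the 10 genes, among 15846 genes named by a probe of the array. PPARGC1B had no probe by this rule. Whole blood from the jugular vein was taken from 3 female fat-1 transgenic cattle, replicate 1 aged 3.5 years and replicates 2 and 3 aged 3 years, and from 3 female wild type cattle aged 3 years, with 1 Agilent 1-colour array for each animal. The transgene, fat-1, comes from the worm Caenorhabditis elegans, and its enzyme converts omega-6 into omega-3 fatty acids, which mammals cannot do. The labels used here give neither the promoter of the transgene nor whether the animals came from 1 founder or clone. The 75th percentile of intensity over probes was 714 to 1065 on the fat-1 arrays and 611 to 886 on the wild type arrays. The fat-1 arrays were on slide 1 and the wild type arrays on slide 2, so slide and genotype cannot be told apart.

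Nuclear receptors are transcription factors that bind small fat-soluble molecules. The PPARs bind fatty acids and their derivatives, the liver X receptors (LXR-alpha, gene NR1H3, and LXR-beta, gene NR1H2) bind oxysterols, and the retinoid X receptors bind retinoids and some polyunsaturated fatty acids. A PPAR or an LXR binds DNA as a dimer with an RXR, so the RXRs are shared partners of both. HNF4A binds DNA as a homodimer, holds a fatty acid in its pocket and is best known from liver, gut, kidney and pancreas. The PGC-1 coactivators (PPARGC1A and PPARGC1B) bind several of these receptors and raise transcription of genes of mitochondria and fuel use. In blood, PPARG, LXR and their partners are best known from monocytes and macrophages.

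Each probe is 60 bases long and reads a single stretch of its transcript. Probes are told apart below by the base of the target transcript at which they start. Genome positions are given as deposited (build Btau_3.1, per the file headers). For 19 probes the files give 1 block of genome, and for 4 they give a span longer than the probe. Whether a probe lies in a coding or an untranslated exon was not analysed here, since no gene annotation for Btau_3.1 was at hand. The sequences below are shown because they are what the receptor signals rest on: 1 probe of each of 5 receptor genes, and the HNF4A probes that did and did not give a signal.
PPARA, start 1396, chr5:123407524-123407583, plus strand: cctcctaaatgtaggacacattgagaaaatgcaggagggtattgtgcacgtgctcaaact
PPARG, start 1629, chr22:58308055-58308114, minus strand: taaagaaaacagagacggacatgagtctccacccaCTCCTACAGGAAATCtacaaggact
RXRA, start 1301, chr11:109105611-109105670, minus strand: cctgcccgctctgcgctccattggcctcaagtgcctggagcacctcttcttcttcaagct
NR1H3, start 1112, chr15:77485771-77488803, plus strand: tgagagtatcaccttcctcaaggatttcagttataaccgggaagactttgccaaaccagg
NR1H2, start 470, chr18:56496804-56496863, plus strand: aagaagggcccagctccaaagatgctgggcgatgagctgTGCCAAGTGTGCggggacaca
HNF4A, start 815, chr13:73606669-73606728, plus strand: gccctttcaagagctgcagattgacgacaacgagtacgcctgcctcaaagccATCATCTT
HNF4A, start 867, chr13:73606721-73609603, plus strand: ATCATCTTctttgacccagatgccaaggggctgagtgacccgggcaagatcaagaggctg
HNF4A, start 4387, chr13:73618185-73618244, plus strand, first 30 bases: tgtcactgccacccaacggggcaaagaagc
In PPARG the capitals mark codons for leucine, leucine, a further residue, glutamate and isoleucine, the core of the activation helix that touches coactivators. In NR1H2 they mark the stretch from the first to the second cysteine codon of a zinc finger of the DNA-binding domain. In the HNF4A probes that start at 815 and 867 they mark the 8 bases both probes share.

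Of the 23 probes, 15 had a signal well above background in 3 or more animals and were tested, or 65.2%, against 61.4% of all probes. The other 8 were well above background on no array, with processed intensities of 4.28 to 26.0. PPARD, PPARG, RXRA, RXRB, NR1H3 and NR1H2 each had at least 1 probe well above background in all 6 animals, 13 probes in all. PPARA and HNF4A were measured in some animals only, by 1 probe each. PPARGC1A was not well above background in any animal at its 3 probes. GC content was 25% to 60% among the 23 probes, with a median of 45% among those tested and 48.3% among those that were not.

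**Figure D1:**
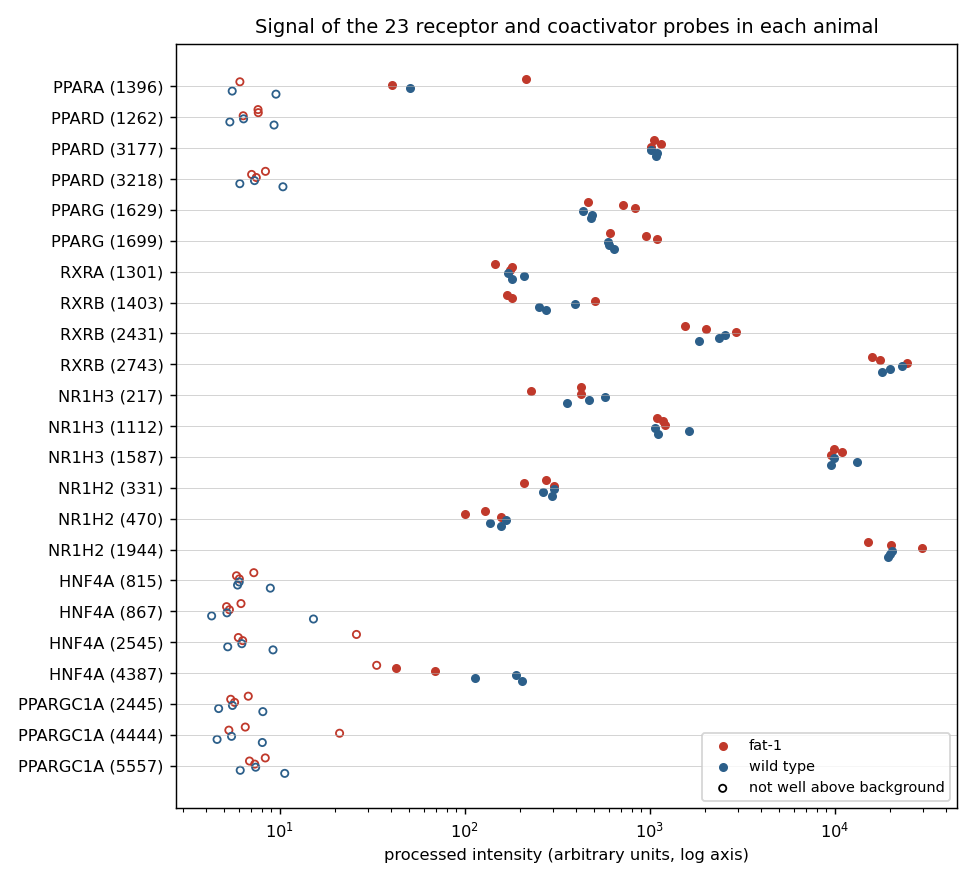
Processed intensity (arbitrary units, log axis) of the 23 probes, named by gene and start base, with 1 point per animal for fat-1 (red) and wild type (blue), filled where the spot was well above background. The 8 probes with open points only stayed at or below 26.0, and the PPARA and HNF4A (4387) rows mix open and filled points.

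HNF4A was the receptor whose signal passed the test between the genotypes: the difference at its 1 measurable probe was -2.00 on the log2 scale, 4.01-fold lower in fat-1 blood. This call was lost in 8 of the 14 alternatives that could be fitted, and the difference was -1.32 with another background correction (normexp). The probe was well above background in all 3 wild type animals and in 2 fat-1 animals, but not in fat-1 replicate 1. It thus met the filter through the wild type animals, where it is higher, and the fat-1 animals alone did not meet it. None of the PPAR, RXR or LXR probes passed the test, in either direction. Of the 15 tested probes, 1 had an adjusted p under 0.05 in limma's test with Benjamini-Hochberg adjustment over 26823 probes, where 46 passed in all (0.171%), 21 of them higher (0.0783%) and 25 lower (0.0932%). The same 1 of 15 had an unadjusted p under 0.05 (12.8% of all probes) and the same 1 had groups that did not overlap (19.6% of all probes). The differences of 12 probes were below 0, against 55.4% of all probes, and their median over the 15 was -0.26, against -0.06 over all probes. The 12 are not separate genes, since RXRB, NR1H3 and NR1H2 have 3 probes each. In whole blood, fewer cells of a type and less RNA per cell cannot be told apart, and p-values measure the spread between these 6 animals only.

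**Figure D2:**
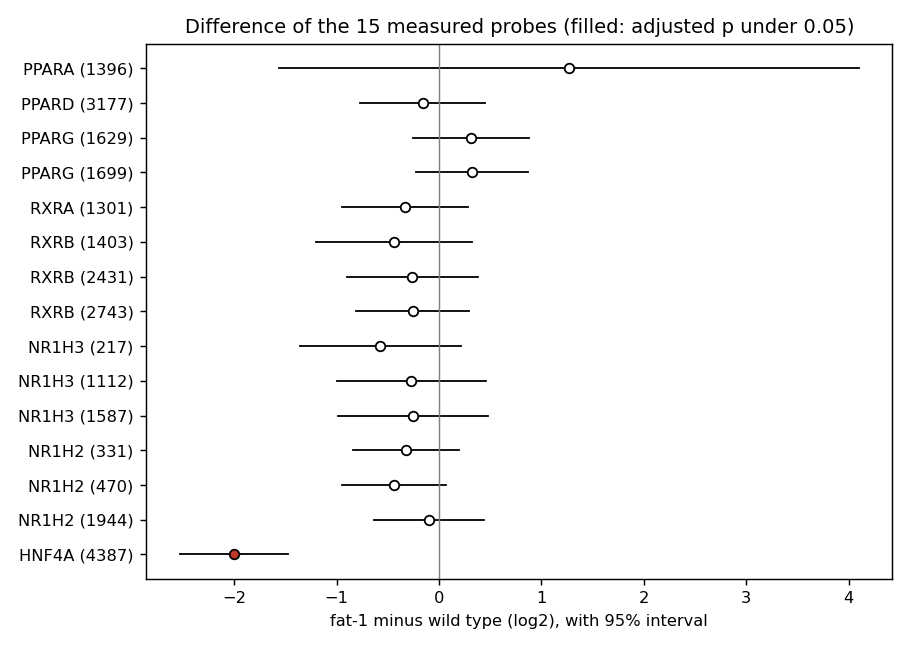
Difference of fat-1 minus wild type (log2) for each of the 15 tested probes, with the 95% interval of the limma fit and n = 3 animals a group; the filled point has an adjusted p under 0.05. The HNF4A interval runs from -2.53 to -1.48, and each of the other 14 intervals includes 0.

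PPAR-alpha is the receptor of fatty acid oxidation in liver and muscle. At its only probe, the processed intensities were 214, 6.08 and 40.7 in fat-1 replicates 1 to 3, against 50.8, 5.53 and 9.53 in wild type replicates 1 to 3. The spot was well above background in fat-1 replicates 1 and 3 and in wild type replicate 1, and in none of the remaining 3 animals, so the groups overlapped widely. The difference was 1.27 ± 1.24 (log2, SE, n = 3 a group), with a 95% interval from -1.56 to 4.10 and an adjusted p of 0.618 in limma. It was 0.09 with normexp, -0.61 with array weights, -0.09 when fat-1 replicate 1 was left out and 2.51 when fat-1 replicate 2 was.

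PPAR-delta, which is expressed in many tissues and drives fatty acid use, was measured by 1 of its 3 probes. Its levels, as log2 of intensity over the array's 75th percentile, were 0.55, 0.62 and -0.07 in fat-1 blood, against 0.45, 0.85 and 0.30 in wild type blood. Both groups lay around 0, that is, around the 75th percentile of all probes, and they overlapped. The difference was -0.16 ± 0.27 (log2, SE, limma adjusted p = 0.769). The probe that starts at 3218 shares 19 bases with the measured one at 3177 but was well above background in no animal, and the probe at 1262 was not either.

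PPAR-gamma is the receptor of fat storage in adipocytes and of lipid uptake in macrophages, and both of its probes were well above background in every animal, with differences above 0 that did not pass. The probe over its activation helix, at 1629, had log2 levels of -0.63, -0.07 and -0.35 in fat-1 blood, against -0.78, -0.33 and -0.87 in wild type blood. Fat-1 replicate 2 was the highest of the 6, but wild type replicate 2 lay above 2 of the fat-1 animals. The differences were 0.31 ± 0.25 at this probe and 0.32 ± 0.24 at the probe that starts at 1699 (log2, SE), with limma adjusted p of 0.552 and 0.527. The probes followed each other over the 6 animals with r of 0.988, a description of readings that share animals and arrays.

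The retinoid X receptors are the dimer partners of the PPARs and LXRs. RXR-alpha had log2 levels of -2.30, -2.05 and -2.61 in fat-1 blood, against -2.11, -1.54 and -2.30 in wild type blood at its only probe. The groups overlapped, and wild type replicate 2 was the highest animal. The difference was -0.33 ± 0.27 (log2, SE, limma adjusted p = 0.555).

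RXR-beta was read by 3 probes. The probe at 2743 was among the brightest of the receptor probes, with log2 levels of 4.47, 4.56 and 4.53 in fat-1 blood, against 4.97, 5.02 and 4.34 in wild type blood. The fat-1 animals lay within 0.09 of each other, between wild type replicate 3 below them and the other wild type animals above. Its difference was -0.26 ± 0.24, that of the probe at 2431 was -0.26 ± 0.28, and that of the probe at 1403 was -0.44 ± 0.33 (log2, SE). The limma adjusted p of the 3 probes were 0.604, 0.643 and 0.536. The probes at 2431 and 2743 correlated at 0.958 over the 6 animals, while each correlated with the probe at 1403 at 0.658 and 0.619.

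LXR-alpha, which in macrophages turns on the export of cholesterol, was measured at 3 probes of NR1H3. At the probe that starts at 1112 the log2 levels were 0.62, 0.66 and 0.18 in fat-1 blood, against 0.52, 1.42 and 0.33 in wild type blood. Wild type replicate 2 stood above the other 5 animals, which overlapped. At the probe that starts at 217 the levels were -0.75, -1.70 and -1.33 in fat-1 blood, against -0.37, -0.38 and -1.31 in wild type blood. Here wild type replicates 1 and 2 lay above every fat-1 animal and wild type replicate 3 lay among them. The differences at 217, 1112 and 1587 were -0.57 ± 0.34, -0.27 ± 0.32 and -0.25 ± 0.32 (log2, SE), with limma adjusted p of 0.461, 0.675 and 0.693. Without wild type replicate 2 the last 2 became 0.06 and 0.03.

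LXR-beta, which is expressed in most tissues, also had 3 probes. At the probe of the zinc finger, which starts at 470, the log2 levels were -2.47, -2.89 and -2.77 in fat-1 blood, against -2.16, -2.16 and -2.49 in wild type blood. Wild type replicate 3 and fat-1 replicate 1 lay side by side, and the other animals were apart by genotype. The difference was -0.44 ± 0.22 (log2, SE), the smallest unadjusted p among the receptor probes other than HNF4A at 0.0805, with a limma adjusted p of 0.417. At 331, also near the start of the transcript, the difference was -0.32 ± 0.23 (adjusted p = 0.514). At 1944, the brightest of the tested receptor probes, levels were 4.41, 4.75 and 4.80 in fat-1 blood, against 4.78, 5.02 and 4.46 in wild type blood, and the difference was -0.10 ± 0.23 (adjusted p = 0.842). The probes at 331 and 470 followed each other over the 6 animals with r of 0.966. The probe at 1944 correlated with them at 0.155 and 0.236, so probes of 1 gene gave unlike readings. The reason was not tested. The 13 tested probes other than PPARA and HNF4A had differences between -0.57 and 0.32, and their 95% intervals ran from -1.36 at the lowest to 0.88 at the highest.

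**Figure D3:**
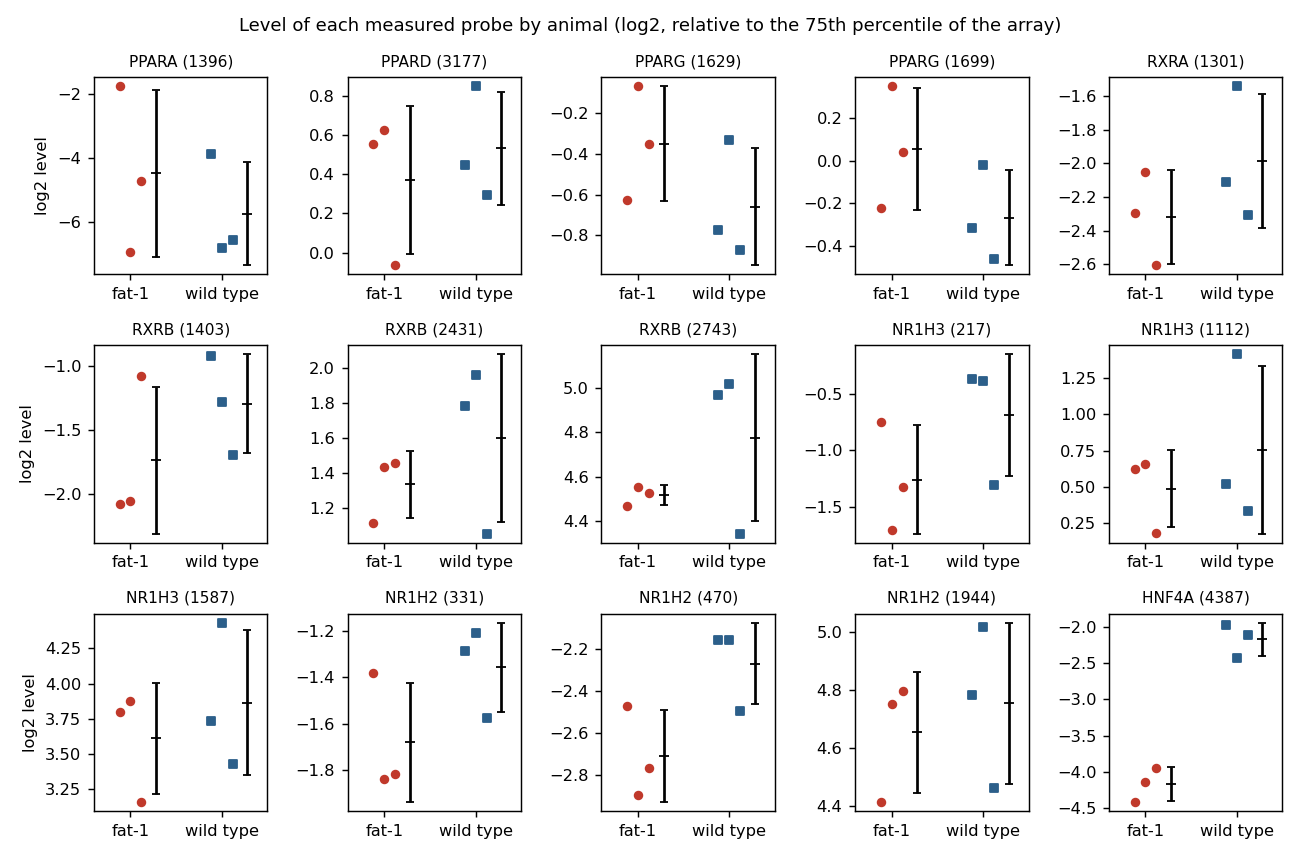
Log2 level (intensity over the array's 75th percentile) in each of the 3 fat-1 (red circles) and 3 wild type (blue squares) animals for the 15 tested probes, named by gene and start base, with the mean and SD of each group as bars and an axis of its own in each panel. The groups are apart in the HNF4A panel only, and wild type replicate 2, the middle square, is the highest animal in 9 of the 15 panels.

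HNF4A, in liver a regulator of apolipoproteins, clotting factors and bile acid enzymes, gave a signal at 1 of its 4 probes. At this probe, which starts at base 4387, the processed intensities were 33.4, 42.3 and 68.9 in fat-1 blood, against 190, 114 and 205 in wild type blood. The lowest wild type animal lay above the highest fat-1 animal, and fat-1 replicate 1 was not well above background. The wild type animals alone met the filter of 3 animals, and the fat-1 animals alone did not. The log2 level averaged -4.17 ± 0.24 in the fat-1 animals and -2.17 ± 0.23 in the wild type animals (SD, n = 3 each). The difference was -2.00 ± 0.23 (log2, SE), with a 95% interval from -2.53 to -1.48, an unadjusted p of 1.7e-05 and an adjusted p of 0.0245 in limma's test, rank 19 among the probes tested. The other 3 HNF4A probes, at 815, 867 and 2545, were at 4.28 to 26.0 in all 6 animals and well above background in none. The HNF4A result thus rests on 1 probe that lies close to the lower limit of the array and that the other probes for the gene did not repeat.

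The direction of the HNF4A difference was the same under the 14 alternatives that could be fitted, and the adjusted p stayed under 0.05 in 6 of them. It lay between 0.00199 and 0.114, and the difference between -2.16 with array weights and -1.32 with normexp. Quantile normalization gave -2.06 (adjusted p = 0.0652), the authors' value table -2.05 (0.0643) and no filter on dim probes -2.00 (0.0712). Of the 6 fits that each left out 1 animal, only that without wild type replicate 2 passed (adjusted p = 0.0423), and without fat-1 replicate 1 it was 0.114. The requirement of signal on all 6 arrays leaves the probe untested.

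**Figure D4:**
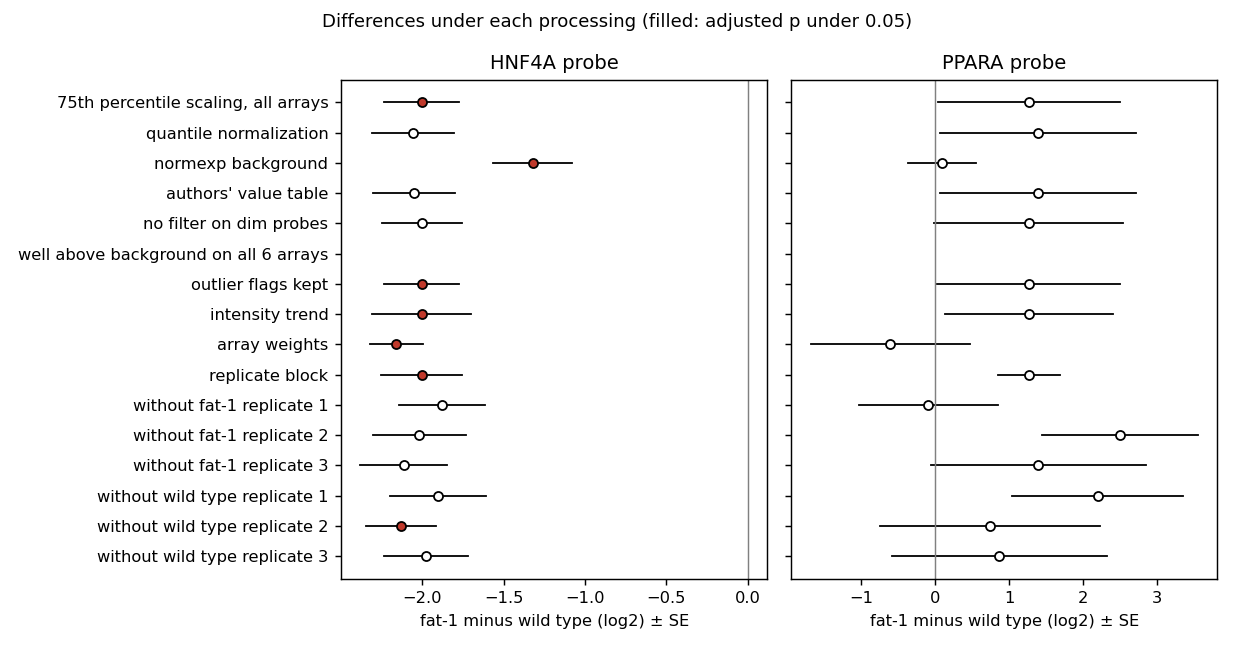
Difference of fat-1 minus wild type (log2, with SE) of the HNF4A probe (left) and the PPARA probe (right) under each processing, filled where the adjusted p was under 0.05; both probes are untested where all 6 arrays must be well above background. HNF4A stays between -2.16 and -1.32 throughout, while PPARA runs from -0.61 to 2.51.

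Marker lists of blood cell types were summed in each animal, and no list was tested. Of 12 lists, those of gamma-delta T cells, alpha-beta T cells and intestinal epithelium did not overlap between the genotypes, and the others did. Among single probes tested, 19.6% did not overlap. The summed level of a marker list, in multiples of the array's 75th percentile, was 17.5 to 49.1 in fat-1 animals and 52.9 to 88.7 in wild type animals for gamma-delta T cells. Of its 8 markers 6 were measured, WC1.3 of the WC1 family among them, each lower in fat-1 blood at its brightest probe. CD163L1 and GATA3 had the highest levels, and the other probe of TRGC6 had a difference of 0.26. No probe was named WC1 or TRDC. For the alpha-beta T cell list the sum was 116 to 160 in fat-1 animals and 162 to 248 in wild type animals (10 of 10 markers measured, 8 below 0). This list includes CD3 genes and LCK, which gamma-delta T cells also express, so it does not read alpha-beta T cells alone. Its CD4, CD8A and CD8B probes differed by -0.44, 0.73 and -0.13 (log2), with limma adjusted p of 0.445, 0.425 and 0.866. Monocyte markers summed to 473 to 649 in fat-1 animals, against 398 to 519 in wild type animals (10 of 10 measured, 1 below 0, median difference 0.38). Neutrophil markers summed to 446 to 643 in fat-1 animals, against 416 to 556 in wild type animals (8 of 12 measured, 3 below 0, median difference 0.11). In the same order the ranges were 4.70 to 7.72 against 3.88 to 5.92 for eosinophils (2 of 8 measured). They were 42.7 to 55.9 against 47.4 to 94.0 for B cells (7 of 9), and 40.2 to 82.8 against 35.4 to 58.5 for NK cells (8 of 8). Hepatocyte markers summed to 8.99 to 17.4 in fat-1 animals, against 8.36 to 11.6 in wild type animals, with 5 of 12 measured. APOB, TTR, FGA and CYP8B1 were well above background in no animal. Of the 5 measured, 4 lay below 0, and the median difference was -0.43. The sum was mostly HP, chosen for mention after its value was seen, which differed by 0.71 ± 0.35 (log2, SE, limma adjusted p = 0.416). Platelet markers summed to 131 to 210 in fat-1 animals, against 134 to 176 in wild type animals (7 of 10 measured, 0 below 0, median difference 0.50). Intestinal markers summed to 1.75 to 1.87 in fat-1 animals, against 1.31 to 1.65 in wild type animals, with 4 of 8 measured. Among them FABP2, chosen for mention after its value was seen, differed by 2.11 ± 0.49 (log2, SE, limma adjusted p = 0.184). It was well above background in 3 fat-1 animals and 1 wild type animal, and so met the filter through the fat-1 animals. LGALS4, the brightest of the list, had overlapping levels of 0.72, 0.63 and 0.52 in fat-1 blood, against 0.13, 0.37 and 0.57 in wild type blood. CDX1, CDX2 and KRT20 were well above background in no animal. Of the adipocyte markers 2 of 7 were measured, and ADIPOQ, CIDEC and FABP4 were well above background in no animal. The part of these cells in the receptor results was not tested. Red cell markers summed to 533 to 1041 in fat-1 animals, against 98.6 to 1241 in wild type animals, with the highest value in wild type replicate 2.

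Among named genes, the probes most like HNF4A over the 6 animals, as a description, were those of CD200, a membrane glycoprotein that dampens myeloid cells (r = 0.997), CCL19, a chemokine that draws lymphocytes and dendritic cells (r = 0.990), and FSTL1, a secreted glycoprotein (r = 0.989). Of 21363 named probes compared, 53 reached an r of 0.95. The differences were -1.40 for CD200 and -0.89 for CCL19 on the log2 scale, with FSTL1 between them. Genes picked for likeness to a probe that is lower in fat-1 blood will be lower there too. The direction of these differences thus follows from the choice of genes. The probes most like LXR-beta at 1944 were CALCOCO2, an autophagy receptor (r = 0.999), ZDHHC5, an enzyme that attaches palmitate to proteins (r = 0.997), and FLII, a protein of the actin cytoskeleton (r = 0.996), and 128 of 21361 reached 0.95. All points come from the same 6 arrays.

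PPARGC1A, the coactivator of mitochondrial biogenesis in muscle, brown fat and liver, was read by 3 probes, at 2445, 4444 and 5557. None was well above background in any animal. The highest of its intensities was 21.0, at 4444 in fat-1 replicate 3. For PPARGC1B, which has no probe by the naming rule, the array carries 1 probe named by an Ensembl transcript and described as coactivator 1 beta, at chr7:60646913-60646972. Its intensities were 6.46, 5.29 and 159 in fat-1 blood, against 5.32, 4.43 and 7.77 in wild type blood. It was well above background in fat-1 replicate 3 only.

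The genes that these receptors act on and work with were described as 8 lists from textbook knowledge, with 1 probe a gene, the brightest. They hold 217 genes, of which 137 were measured. Of these, 1 passed the test, G0S2 in the list of PPAR-gamma targets, while over all genes 0.164% passed. Over all genes 12% had an unadjusted p under 0.05, 57.9% were below 0, and the median difference was -0.08.

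G0S2, an inhibitor of the fat-splitting enzyme ATGL, had log2 levels of -4.95, -5.27 and -4.83 in fat-1 blood, against -1.54, -1.04 and -1.25 in wild type blood. The groups were far apart, and 1 of the 3 fat-1 animals and all 3 wild type animals were well above background. This probe thus met the filter through the wild type animals, where it is higher, and the fat-1 animals alone did not meet it. The difference was -3.74 ± 0.23 (log2, SE, limma adjusted p = 0.00117), and -2.15 with normexp, so its size depends on how the background is corrected. The other G0S2 probe was well above background in no fat-1 animal and in all 3 wild type animals. It was lower in fat-1 blood (limma adjusted p = 0.00319), but was tested only because of its signal in the wild type animals. Its wild type mean was 8.75-fold above the lowest signal well above background on the fat-1 arrays, averaged over these arrays, on processed intensity. This is a guide and not a strict bound, as a spot brighter than an array's lowest such signal can lack the flag. The other 13 measured PPAR-gamma targets did not pass: 2 of the 14 had an unadjusted p under 0.05 and were higher and 1 was lower, 7 lay below 0, and the median was 0.03.

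Of 26 measured PPAR-alpha targets, the genes of fatty acid oxidation and fasting, none passed. Without adjustment 3 were higher and 4 lower in fat-1 blood, 18 lay below 0, and the median was -0.17. VNN1, a pantetheine hydrolase, had levels of 1.19, 1.85 and 1.11 in fat-1 blood, against -0.09, 0.12 and 0.16 in wild type blood. Each fat-1 animal lay above each wild type animal, with a difference of 1.32 ± 0.25 (log2, SE) that did not pass in limma (adjusted p = 0.107), and of 0.78 ± 0.26 at its other probe (adjusted p = 0.321). CPT1B, the muscle form of the enzyme that admits fatty acids to mitochondria, had -2.75, -3.10 and -2.99 in fat-1 blood, against -2.03, -1.61 and -2.47 in wild type blood, which differ by -0.91 ± 0.26 (adjusted p = 0.270). Its other probe went the other way, with a difference of 0.28 ± 0.24 (adjusted p = 0.572).

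None of 14 measured LXR targets, genes of cholesterol export and fat synthesis, passed. Without adjustment 2 were higher and 1 lower, 7 lay below 0, and the median was -0.02. NR1H3, a receptor described above, is also a gene of this list and is counted among those below 0 (-0.25). LPL, the lipase of lipoprotein triglycerides and also a PPAR-gamma target, had levels of 0.43, 1.71 and 1.20 in fat-1 blood, against -1.86, -0.08 and -1.11 in wild type blood. Each fat-1 animal lay above each wild type animal, with a difference of 2.13 ± 0.48 (log2, SE, limma adjusted p = 0.161), and of 2.92 with array weights. It passed with array weights, with normexp and with the replicate block. SMPDL3A, a phosphodiesterase of macrophages, differed by 0.91 ± 0.28 (adjusted p = 0.294), and by 0.23 with normexp.

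Only 14 of 30 HNF4A targets, the apolipoprotein, clotting and plasma protein genes of liver and gut, were measured in blood. None passed, none had an unadjusted p under 0.05, 11 of 14 lay below 0, and the median was -0.30. The smallest unadjusted p belonged to SERPINA1, the main protease inhibitor of plasma (-0.71 ± 0.33, limma adjusted p = 0.399), and to AGT, the precursor of angiotensin (-0.56 ± 0.28, adjusted p = 0.416).

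Of 31 other nuclear receptors, RXR partners such as the retinoic acid and vitamin D receptors among them, 14 were measured and none passed. Without adjustment 1 was higher and 2 lower, and 9 lay below 0 around a median of -0.11. NR3C1, the glucocorticoid receptor, had levels of -2.11, -1.81 and -2.39 in fat-1 blood, against -3.24, -3.78 and -2.68 in wild type blood. Each fat-1 animal lay above each wild type animal, yet the difference of 1.13 ± 0.31 (log2, SE) did not pass (limma adjusted p = 0.249), and it was 0.44 with normexp. NR2F6, an orphan receptor of lymphocytes, differed by -0.89 ± 0.25 (adjusted p = 0.259).

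Coactivators and corepressors were measured for 21 of 28 genes, none of which passed. Without adjustment 1 was higher, NCOA1, a steroid receptor coactivator (0.52 ± 0.21, limma adjusted p = 0.371), and 1 was lower, PRMT1, an arginine methyltransferase (-0.61 ± 0.26, adjusted p = 0.384). Their median was 0.13 and 9 lay below 0. Of the partners and mitochondrial targets of the PGC-1 coactivators, 24 of 26 were measured, none had an unadjusted p under 0.05, 11 lay below 0 and the median was 0.08. The smallest p belonged to MEF2C, a muscle and lymphoid transcription factor (0.40 ± 0.20, adjusted p = 0.417), and TFAM, which packages mitochondrial DNA (0.47 ± 0.25, adjusted p = 0.429). With normexp the differences were 0.30 for MEF2C and 0.08 for TFAM.

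Enzymes and carriers of the receptors' ligands were measured for 17 of 34 genes, and none passed. Without adjustment 2 were higher, CRABP2 among them, and 3 lower, 7 lay below 0, and the median was 0.09. CRABP2, which carries retinoic acid to its receptor, had levels of -3.38, -3.74 and -3.27 in fat-1 blood, against -6.39, -5.05 and -6.67 in wild type blood. It was well above background in every fat-1 animal and in no wild type animal, and so was tested only because of its signal in the fat-1 animals. On processed intensity the fat-1 mean was 2.62-fold above the lowest signal well above background on the wild type arrays, averaged over these arrays. This too is a guide and not a strict bound. The test did not pass (limma adjusted p = 0.0732), and with normexp the difference was 0.33. SULT2B1, a sulfotransferase that inactivates cholesterol and oxysterols, had -2.02, -1.47 and -1.71 in fat-1 blood, against -0.66, -0.35 and -0.62 in wild type blood. The groups did not overlap, and the difference was -1.19 ± 0.23 (log2, SE, adjusted p = 0.107), against -2.44 ± 0.40 at its other probe, where only 1 fat-1 animal had a signal well above background (adjusted p = 0.0778).

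**Figure D5:**
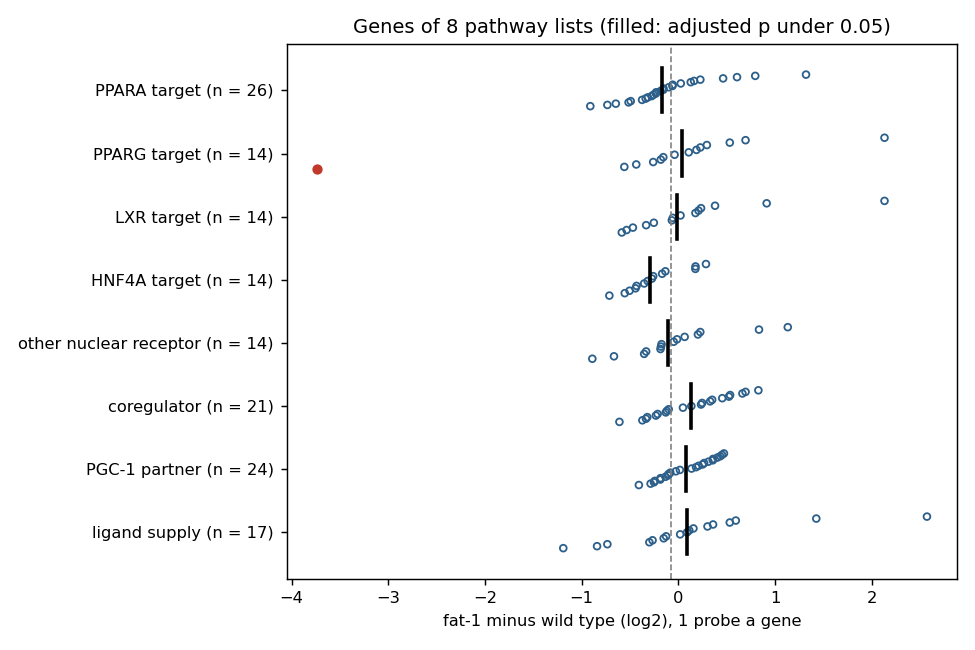
Difference of fat-1 minus wild type (log2) of each measured gene in 8 lists of targets, partners, coregulators and ligand enzymes, with 1 point per gene, the list's median as a bar, the median over all genes (-0.08) as a dashed line, and a filled point where the adjusted p was under 0.05. The filled point is G0S2 at -3.74, and list medians lie between -0.30 and 0.13.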

How the data were processed

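RNA from whole blood of 6 animals was measured on 1-colour Agilent arrays. Per the submitters' processing notes, spot intensity was read from the scans with Agilent Feature Extraction (version 10.7.1.1). The deposited processed intensity is background-subtracted, with a surrogate for the dimmest spots, and is not scaled between arrays, per the file headers. The flags of 0 or 1 for spots above background, saturated or outlying were used as deposited, and so were raw mean and local background intensity in an alternative. The authors also deposited a table of log2 values, whose columns all have a median of 6.38; its columns correlated with their own arrays at 0.999 or above, and it was used as an alternative.

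Here, processed intensity was taken to log2 minus the 75th percentile of each array. Repeat spots were averaged without those flagged as outliers, and 32 probes with no spot left on some array were dropped. Where a probe was well above background in 3 or more animals, limma (version 3.58.1, R version 4.3.3) fitted lmFit and eBayes with genotype as the only term, Benjamini-Hochberg adjustment over 26823 probes and an adjusted p of 0.05 as threshold. The fit was tested on simulated data. Alternatives were quantile normalization, normexp with an offset of 50, the authors' table, other filters, an intensity trend, array weights, the replicate number as a block, and each animal left out. With 6 arrays, their number limits precision. The file of wild type replicate 2 keeps 3 significant digits.

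Gene symbols came from the files and from a table of RefSeq genes of ARS-UCD2.0 (by accession for 22205 probes, by symbol for 9847 and by an older symbol for 372). Probe sequences are those of the files. The genes named are all members, list genes past the threshold or, where none passed, the 2 of smallest unadjusted p, and the 3 genes most like a member by Pearson correlation. LPL stands in 2 lists, as do other genes. The members and lists were chosen with earlier results of these data known.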

Additional observations from a re-analysis of the deposited data

How the results depend on the processing

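Over the 15 alternatives, 223 differences of receptor probes were computed; 206 kept their direction and side of the threshold, 8 lost the call and 9 reversed. The number of receptor probes past the threshold was 0 with quantile normalization, the authors' table, no filter or the strict filter, and 0 to 1 with 1 animal left out. HNF4A stood at -2.06 with quantile normalization, -2.05 in the authors' table and -2.00 with no filter, and at -2.13 to -1.88 with 1 animal left out. Among uncalled probes, NR1H2 (A_73_P043671, start 1944) turned to 0.081 with quantile normalization and 0.079 in the authors' table, and ran from -0.247 to 0.0318 with 1 animal left out, with the highest value without wild type replicate 2 and 0.0199 when fat-1 replicate 1 was left out. PPARA was -0.61 with array weights and ran from -0.0923 (without fat-1 replicate 1) to 2.51 with 1 animal left out. PPARD ran from -0.287 to 0.0577 (without fat-1 replicate 3), and NR1H3 from -0.481 to 0.0615 at 1112 and from -0.472 to 0.0294 at 1587, both highest without wild type replicate 2. The count of receptor probes below 0 was 9 without wild type replicate 2 and 11 to 13 of those tested otherwise.

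Over all probes the count past the threshold was 46, against 16 with quantile normalization, 117 with normexp, 16 in the authors' table, 14 with no filter, 125 with an intensity trend, 1986 with array weights and 8 to 55 with 1 animal left out. Array weights used limma's gene-by-gene method, chosen after seeing that its default stopped before converging. PPAR-alpha targets had 1 call with normexp and 1 with the trend (VNN1) and 3 with array weights. PPAR-gamma targets had 2 with normexp (G0S2, LPL), 0 with the strict filter and 3 with array weights. LXR targets had 1 with normexp (LPL) and 2 with array weights. With array weights other nuclear receptors had 3, coregulators 2 and ligand genes 3; ligand genes had 0 to 1 with 1 animal left out (CRABP2 without wild type replicate 2, adjusted p = 0.0181, a gene that was tested only because of its signal in the fat-1 animals).

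The labels do not describe the replicate numbers as a pairing, and they were not used as one. Deviations of same-numbered animals from their group means correlated at 0.117, 0.185 and 0.006, against -0.206 to 0.0768 for other pairs of animals. With 3 animals a group these values cannot decide whether the numbers pair animals. With the replicate block, 105 probes passed in all, PPAR-gamma targets had 2 calls and LXR targets 1 (LPL in both), and the block changed no call of a receptor probe. Probes near the lower limit of signal, PPARA and HNF4A among them, are the least certain here.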
